A study of Mus musculus with 9 samples.

Results

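The 10 genes described here are 5 epithelial markers (Cdh1, Epcam, Krt8, Krt18 and Krt19), the mesenchymal cadherin gene Cdh2 and 4 genes of transcription factors of epithelial-mesenchymal transition (EMT), Snai1, Snai2, Zeb1 and Zeb2. They were chosen by symbol, and all 10 were found among the 47937 genes of the count table. RNA-seq of total RNA was available from 9 libraries of mouse embryonic fibroblasts (MEFs), with 3 libraries for each of 3 genotypes. WT cells have functional Suv39h and G9a/Glp enzymes. S1S2 cells are mutant for Suv39h1 and Suv39h2, which mainly set trimethylation of histone H3 lysine 9 (H3K9), and G9Gl cells are mutant for G9a and Glp (Ehmt2 and Ehmt1), which mainly set H3K9 dimethylation. Per the methods of the study, all 3 genotypes share a conditional Eset1 allele with a tamoxifen-inducible Cre, and whether tamoxifen was given is not stated in the labels. Each mutant is a single CRISPR/Cas9 clone of this line, so genotype and clone cannot be told apart, and p-values measure only the spread between libraries of a line. The methods describe the 3 libraries of a line as biological replicates, without saying how they were separated.

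Epithelial cells hold together through E-cadherin (Cdh1) and EpCAM and fill their cytoplasm with keratin filaments, in which a type II keratin such as Krt8 pairs with a type I keratin such as Krt18 or Krt19. In EMT, the zinc finger repressors Snai1, Snai2, Zeb1 and Zeb2 bind E-box sequences in the promoters of epithelial genes and silence them, and N-cadherin (Cdh2) replaces E-cadherin. Fibroblasts are mesenchymal cells that normally express the repressors and Cdh2 and keep the epithelial programme off.

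Krt8 and Krt19 were the tested members of the group that rose by 2-fold or more. Krt8 was 32.6-fold higher in S1S2 than in WT and stayed low in G9Gl, and Krt19 was 9.17-fold higher in S1S2 and 5.78-fold higher in G9Gl. Krt8 passed the filter on low counts only through its S1S2 libraries and so had to differ. Cdh1, Epcam and Krt18 stayed at 0 to 10 counts in every library. Cdh2 and the 4 repressor genes remained expressed in all 3 genotypes, and none of them differed by 2-fold or more in any comparison. A gene was called when its adjusted p was at most 0.01 and its fold change at least 2. Adjusted p-values are Benjamini-Hochberg values from the quasi-likelihood test of edgeR, over 15540 genes unless a fit without a filter or without a library is named, and differences are given as log2 fold changes (log2FC) with their standard errors (SE). An SE is that of the replicate spread of log2 CPM or that of counting alone, whichever was larger; the second was larger in 7 of the 21 results for the tested genes, namely 3 of Krt8, 3 of Cdh2 and 1 of Zeb2. Expression is given as CPM, the counts of a gene relative to the depth of the library and scaled by TMM factors, with SD over n = 3 libraries.

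Libraries held between 21319778 and 32157623 counts, the S1S2 libraries being the smallest on average, and a gene at 3 counts, the floor of detection used here, had 0.0923 to 0.141 CPM depending on the library. Suv39h1 was lower in S1S2 (log2FC -1.36, adjusted p = 2.62e-12), whereas Suv39h2 RNA was higher there (0.70, adjusted p = 3.01e-08), and Ehmt2 (-1.20, adjusted p = 9.16e-12) and Ehmt1 (-1.04, adjusted p = 2.24e-12) were lower in G9Gl. The RNA of Suv39h2 therefore does not mark its loss. Fibroblast and mesenchymal genes ranged widely in WT. Vim was at 1458 CPM, Fn1 at 1627 CPM, Col3a1 at 1527 CPM and Col1a1 at 3405 CPM. Dcn was at 7.2 CPM, Thy1 at 4.99 CPM, Cdh11 at 2.23 CPM and Mmp2 at 1.96 CPM, and Lum and Fap had at most 2 and 13 counts in a library. The cell type is taken from the label, and these levels do not test it.

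Upstream sequences were available for 5 of the 10 genes in RefSeq, and those of Krt8, Krt18 and Epcam are shown because Krt8 rose in S1S2 while its usual partner Krt18 and the junction gene Epcam stayed near the limit of detection. The RefSeq windows hold the 250 bases before the RefSeq start, in build GRCm38.p6. The start in the GENCODE annotation is the same for Epcam, but lies 140 bases before the RefSeq start for Krt8 and 36 bases before it for Krt18. Each line gives the part of the window before the GENCODE start, 5′ to 3′ on the strand of the gene. Krt8 is at chr15:102004483-102004592 on the minus strand, and Krt18 is at chr15:102027966-102028179 and Epcam at chr17:87635729-87635978, both on the plus strand. The lines hold 110 bases for Krt8, 214 for Krt18 and 250 for Epcam. A sequence missing from a line may lie in the part of the window left out. Motif matches in these windows are not given, so the lines carry no comparison between the genes.
Krt8: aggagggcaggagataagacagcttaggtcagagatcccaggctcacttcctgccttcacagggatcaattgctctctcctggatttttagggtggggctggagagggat
Krt18: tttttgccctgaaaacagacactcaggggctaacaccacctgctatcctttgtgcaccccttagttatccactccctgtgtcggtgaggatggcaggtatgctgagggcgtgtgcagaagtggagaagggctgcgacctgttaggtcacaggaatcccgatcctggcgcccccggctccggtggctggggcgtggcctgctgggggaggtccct
Epcam: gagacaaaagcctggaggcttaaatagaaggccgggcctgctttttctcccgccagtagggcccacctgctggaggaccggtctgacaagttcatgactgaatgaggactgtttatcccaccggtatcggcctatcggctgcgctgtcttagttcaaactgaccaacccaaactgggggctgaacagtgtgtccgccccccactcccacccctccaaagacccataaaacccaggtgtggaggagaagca

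**Figure D1:**
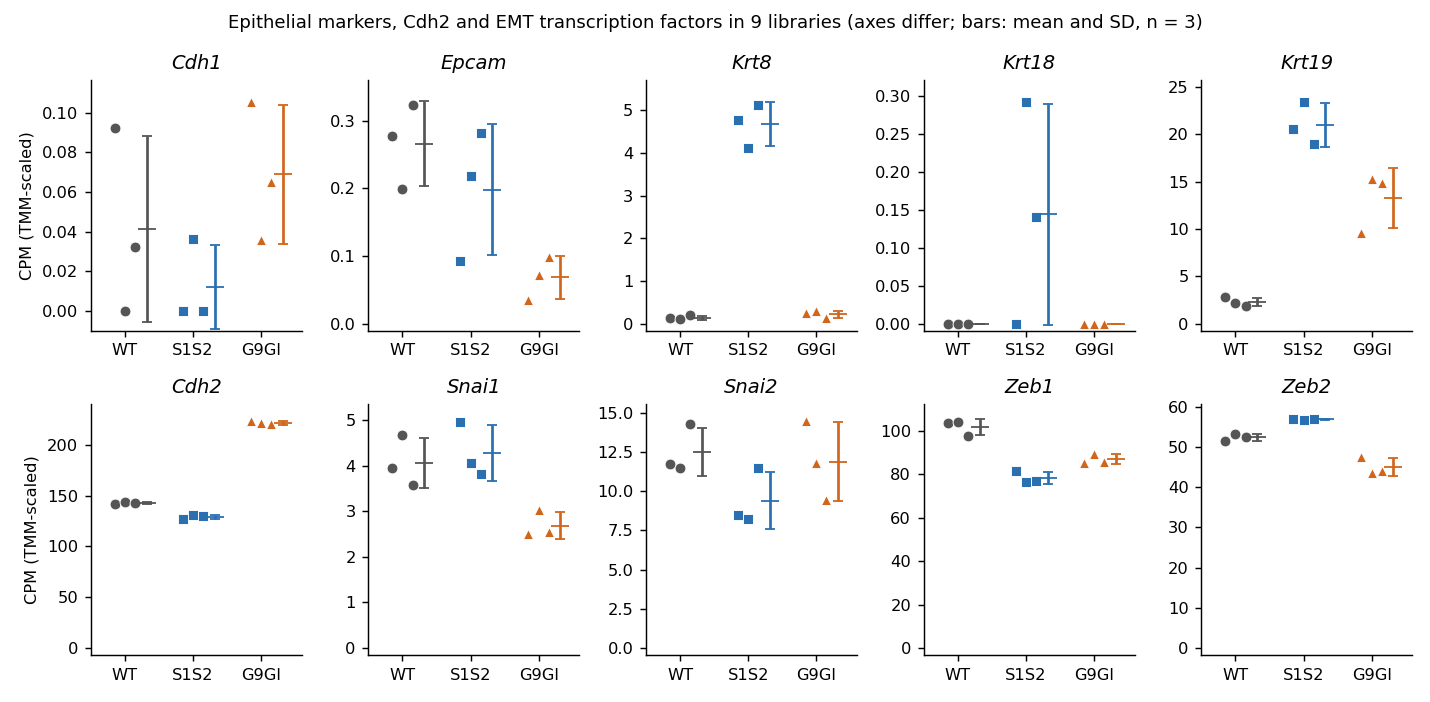
CPM (y axis, scaled by TMM factors, linear, a separate range per panel) of the 10 genes in the 3 libraries of each genotype (x axis). Points are libraries, and the bar beside them is the mean with its SD. Krt8 stands at 4.12 to 5.13 CPM in the S1S2 libraries and at or below 0.287 CPM in all others, whereas the panels of Cdh1, Epcam and Krt18 stay under 0.33 CPM.

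The epithelial junction genes were at or near the limit of detection in all genotypes. Cdh1 (chr8:106603351-106670246, ENSMUSG00000000303), which encodes the adhesion receptor of epithelial junctions, had 3, 0 and 1 counts in WT, 0, 1 and 0 in S1S2 and 3, 1 and 2 in G9Gl. No library exceeded the floor, so a difference in Cdh1 was not detectable at this depth. Epcam (chr17:87635979-87651129), the gene of an epithelial adhesion molecule, had 9, 6 and 10 counts in WT, 2, 6 and 6 in S1S2 and 1, 2 and 3 in G9Gl. The 3 G9Gl libraries were below all WT libraries, and the S1S2 libraries reached into the WT range. Epcam was too low to enter the test. Its summed counts gave a ratio of 0.259 for G9Gl over WT, with an exact 95% interval of 0.0868 to 0.646 that covers counting error only, and 0.745 (0.358 to 1.49) for S1S2 over WT. In the edgeR fit without a filter, the adjusted p of Epcam in G9Gl was 0.0373, which misses the threshold.

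Among the simple keratins, Krt8 rose in S1S2, and Krt18 stayed near the limit of detection. Krt8 (chr15:101996698-102004482), the type II keratin of simple epithelia, had 4, 3 and 6 counts in WT, 104, 113 and 109 in S1S2 and 7, 8 and 4 in G9Gl. All S1S2 libraries were far above the other 6, which overlapped with each other. The mean was 0.139 ± 0.0490 CPM in WT, 4.68 ± 0.512 in S1S2 and 0.221 ± 0.0812 in G9Gl (SD, n = 3). Krt8 rose in S1S2 by a log2FC of 5.03 (SE 0.408, adjusted p = 1.91e-10), and its counting ratio over WT was 33.4 with a 95% interval of 19.2 to 63.4. In G9Gl the log2FC was 0.64 (SE 0.519, adjusted p = 0.302), and the direct comparison of G9Gl with S1S2 gave -4.38 (SE 0.34, adjusted p = 2.70e-10). Krt8 passed the filter on low counts through its S1S2 libraries. A share of 23.5% of its 75-base stretches is also found in the pseudogene Krt8-ps or the antisense RNA gene Gm36026. Krt8-ps had 0 counts in all libraries, while Gm36026 was not among the counted genes, so its reads could not be checked.

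Krt18 (chr15:102028180-102032027), the type I keratin that usually pairs with Krt8, had 0 counts in every WT and G9Gl library and 0, 8 and 3 counts in S1S2. One S1S2 library was above the floor, 1 was at it and 1 had no count, so the S1S2 libraries overlapped with the others. It did not enter the test, and without the filter it was called higher in S1S2 than in WT (log2FC 5.11, adjusted p = 0.00842) and lower in G9Gl than in S1S2 (adjusted p = 0.00927). A fitted log2FC against 0 counts depends on the prior count and is no measure of its size. Per kb of exon, the mean level in S1S2 was 2.39 CPM for Krt8 and 0.10 CPM for Krt18.

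Krt8 and Krt18 are neighbours that are transcribed away from each other from GENCODE starts 23697 bases apart. Within 100 kb on either side, the table holds 8 genes, of which 4 were tested. Krt4, Krt79 and Krt78, on the Krt8 side, had mean levels of at most 0.0819 CPM in every genotype. Eif4b, a translation initiation factor gene beyond Krt18, was at 687 CPM in WT and 667 CPM in S1S2 (log2FC -0.04, adjusted p = 0.361). Tns2 (0.11, adjusted p = 0.114) and Spryd3 (0.19, adjusted p = 0.0122) were not called in S1S2 either. Krt8, which entered the test only through its S1S2 libraries, was called in S1S2, and in G9Gl against WT its adjusted p and those of Eif4b and Tns2 missed 0.01 while Spryd3 was below the 2-fold limit (0.26, adjusted p = 0.00109).

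**Figure D2:**
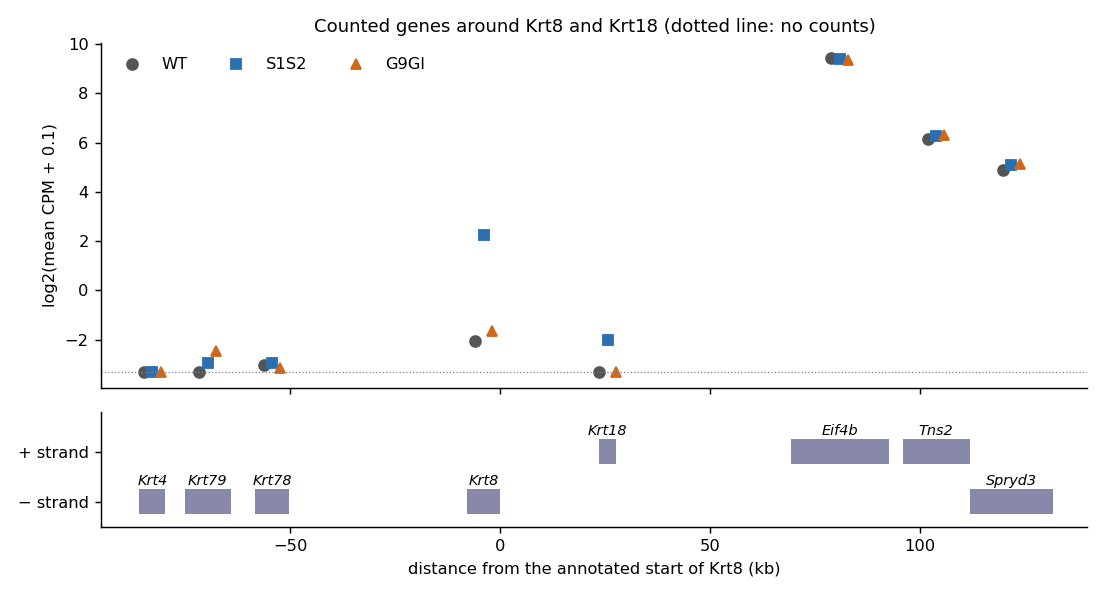
Upper panel, mean level of each counted gene in the 3 genotypes, as log2 of CPM plus 0.1, against the distance of the gene's middle from the annotated start of Krt8 in kb. Lower panel, extent and strand of the genes. The S1S2 symbol of Krt8 is set apart from WT and G9Gl, while the 3 symbols of Eif4b, Tns2 and Spryd3 lie together.

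Krt19 (chr11:100140810-100148665), a type I keratin of simple and ductal epithelia that can also pair with Krt8, had 90, 67 and 58 counts in WT, 448, 643 and 402 in S1S2 and 273, 426 and 456 in G9Gl. Scaled to depth these were 2.77, 2.22 and 1.87 CPM in WT, 20.6, 23.4 and 18.9 CPM in S1S2 and 9.58, 15.3 and 14.9 CPM in G9Gl. The 3 genotypes did not overlap, with S1S2 highest and WT lowest. Krt19 rose in S1S2 by a log2FC of 3.20 (SE 0.183, adjusted p = 1.22e-10), and the rise in G9Gl was 2.53 (SE 0.270, adjusted p = 2.77e-09). Between the mutants the log2FC of G9Gl against S1S2 was -0.67 (SE 0.235, adjusted p = 0.000664), below the 2-fold limit. Both comparisons with WT use the same 3 WT libraries and are not independent of each other.

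Of the 15540 genes tested, the 2 with levels most like Krt19 over the 9 libraries were Ppl and Gspt2. After centring of log2 CPM, they differed from it by a root mean square of 0.28 and 0.286. Ppl encodes periplakin, a linker of keratin filaments to desmosomes and to the cornified envelope, and it was higher by log2FCs of 2.70 in S1S2 and 2.08 in G9Gl. Gspt2, a translation termination factor gene, was higher by 3.08 and 2.64. Ppl and Gspt2 were picked for their likeness to Krt19 in these libraries, so their rises in both mutants follow from the choice. Krt8 had too few counts for this ranking, and its nearest genes, taken after its values were seen, were Ulbp1 (0.315) and Pcdh17 (0.324).

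Cdh2, the N-cadherin gene of fibroblasts on chromosome 18, had the highest level of the 10 genes per kb of exon in all 3 genotypes, and its differences stayed below 2-fold. Its libraries stood at 142, 144 and 143 CPM in WT, 127, 131 and 130 CPM in S1S2 and 224, 222 and 220 CPM in G9Gl. No genotype overlapped with another, and G9Gl was the highest. The log2FC was 0.64 in G9Gl against WT (SE 0.0162, adjusted p = 2.04e-10), a 1.55-fold difference, and 0.78 in G9Gl against S1S2 (SE 0.0183, adjusted p = 1.14e-11). In S1S2 against WT it was -0.14 (SE 0.0196, adjusted p = 0.00446). This last p stayed at or below 0.01 in 4 of the 9 fits that left out a library and reached 0.0277 without S1S2 replicate 1.

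The Snail family genes were expressed at low to moderate levels. Snai1 (chr2:167538195-167542814) had 3.94, 4.66 and 3.58 CPM in WT, 4.97, 4.05 and 3.81 CPM in S1S2 and 2.49, 3.02 and 2.55 CPM in G9Gl. All G9Gl libraries were below all others, and WT and S1S2 overlapped. The log2FC was -0.60 in G9Gl against WT (SE 0.139, adjusted p = 0.00468), -0.67 in G9Gl against S1S2 (SE 0.142, adjusted p = 0.00201) and 0.07 in S1S2 against WT (SE 0.158, adjusted p = 0.723). The Snai1 difference of G9Gl from WT kept an adjusted p of at most 0.01 in 5 of the 9 fits without a library, with 0.0272 without WT replicate 2, and the one from S1S2 in 7 of the 9, with 0.0148 without S1S2 replicate 1.

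Snai2 (chr16:14705852-14709385), the Slug gene, had 11.8, 11.5 and 14.3 CPM in WT, 8.5, 8.20 and 11.5 CPM in S1S2 and 14.5, 11.8 and 9.40 CPM in G9Gl. Each genotype overlapped with the others, S1S2 and WT meeting at 11.5 CPM. The log2FC was -0.42 in S1S2 (SE 0.182, adjusted p = 0.028). In G9Gl it was -0.08 (SE 0.204, adjusted p = 0.696), and neither passed the threshold. With any 1 of the 9 libraries left out, the S1S2 value lay between -0.58 and -0.32, and its adjusted p was at or below 0.01 in 1 of these 9 fits.

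The Zeb genes showed small differences that were precise between libraries. Zeb1, on chromosome 18, had 104, 104 and 97.4 CPM in WT, 81.5, 76.6 and 76.8 CPM in S1S2 and 85.4, 89.5 and 85.6 CPM in G9Gl. Every mutant library was below every WT library. The log2FC was -0.38 in S1S2 (SE 0.0423, adjusted p = 2.96e-06). In G9Gl it was -0.23 (SE 0.038, adjusted p = 0.00049), and both values kept an adjusted p of at most 0.01 in all 9 fits without a library. Between the mutants it was 0.15 (SE 0.0364, adjusted p = 0.0118).

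Zeb2 (chr2:44983632-45117395) had 51.6, 53.3 and 52.4 CPM in WT, 57.0, 56.8 and 57.1 CPM in S1S2 and 47.6, 43.5 and 44.0 CPM in G9Gl. The genotypes did not overlap, with S1S2 the highest and G9Gl the lowest. The log2FC was 0.12 in S1S2 against WT (SE 0.0307, adjusted p = 0.0543), -0.22 in G9Gl against WT (SE 0.0434, adjusted p = 0.00138) and -0.34 in G9Gl against S1S2 (SE 0.0412, adjusted p = 1.81e-05). Without G9Gl replicate 3 the adjusted p against WT was 0.0102. Antisense genes overlap Cdh2, Krt8, Zeb1 and Zeb2. Those of Cdh2, Zeb1 and Zeb2 had at most 23 counts in a library. The one of Krt8, Gm36026, was not among the counted genes.

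**Figure D3:**
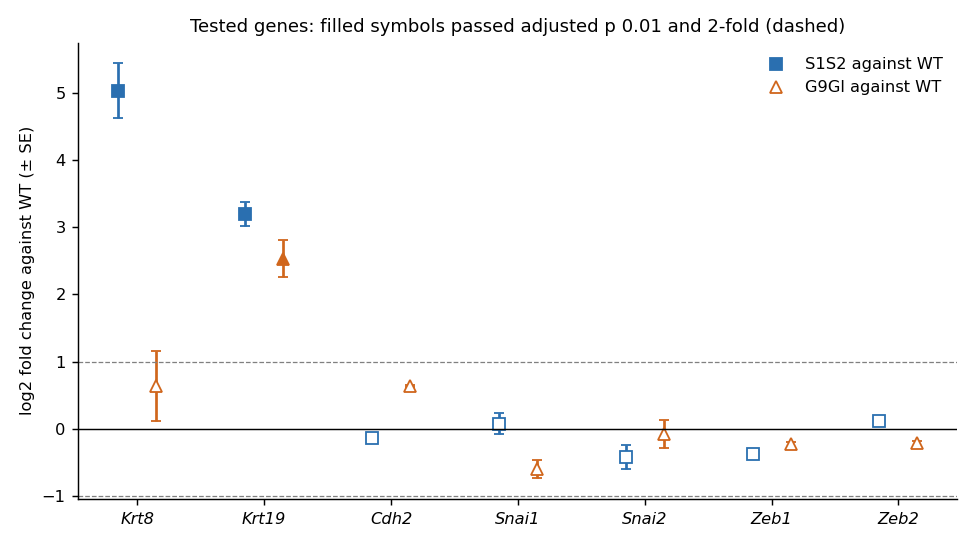
Log2 fold change against WT (y axis, bars showing the SE) of the 7 genes that were tested (x axis), for S1S2 (squares) and G9Gl (triangles). Filled symbols passed an adjusted p of 0.01 and the 2-fold limit drawn as dashed lines. Krt8 and Krt19 are the genes with filled symbols, and the symbols of Cdh2 and the repressor genes lie between -0.60 and 0.64.

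Counted together, 2 of the 7 tested genes were called in S1S2 against WT, both higher, where 9.0% of all tested genes passed, 4.66% higher and 4.34% lower. Krt8 entered the 7 only through its S1S2 libraries and so had to differ. With at least 10 counts required in every library, 1 of 6 was called in S1S2, and the count of 2 supports nothing about the group. Of the 7, 1 gene, Krt19, was called higher in G9Gl against WT, where 10.2% of all tested genes were called, 6.77% being higher and 3.40% lower. Between the mutants 1 of 7, Krt8, was called lower in G9Gl, where 13.1% of all tested genes were called, 7.97% higher and 5.08% lower. The libraries of the genotypes did not overlap for 5 of the 7 genes in S1S2 against WT, 5 in G9Gl against WT and 6 between the mutants, and this was so for 56.0%, 52.8% and 60.8% of all tested genes. With no fold limit and an adjusted p up to 0.01, 4 of the 7 passed in S1S2 against WT (Krt8 and Krt19 higher, Cdh2 and Zeb1 lower) beside 37.9% of all genes. By the same limit 5 of 7 passed in G9Gl against WT (Krt19 and Cdh2 higher, Snai1, Zeb1 and Zeb2 lower) beside 35.0%. Between the mutants 5 of 7 passed it (Cdh2 higher in G9Gl, Krt8, Krt19, Snai1 and Zeb2 lower) beside 42.6%. With shares of this size among all genes, small differences past this limit of Cdh2, Snai1, Zeb1 and Zeb2 are not particular to these genes. The median log2FC of the 7 was 0.07 in S1S2 and -0.08 in G9Gl against WT, beside -0.003 and -0.007 for all genes, and -0.34 in G9Gl against S1S2, beside 0.0 for all genes.

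Per kb of exon, the order of mean levels in WT was Cdh2 at 17.7 CPM, Zeb1 at 9.91, Snai2 at 6.19, Zeb2 at 2.63, Snai1 at 2.5, Krt19 at 1.23, Epcam at 0.121, Krt8 at 0.0708, Cdh1 at 0.00907 and Krt18 at 0. The WT libraries overlapped between Zeb2 and Snai1, between Epcam and Krt8, and between Cdh1 and Krt18. In S1S2, Krt19 moved from the sixth to the second place at 11.3 CPM per kb, above Zeb1 at 7.63, and Krt8 at 2.39 overlapped with Snai1 at 2.64. In G9Gl, Krt19 was the third at 7.15 CPM per kb, overlapping with Snai2 at 5.88. Exons of all transcripts were summed for these lengths, which lowers the level of genes with many isoforms such as Zeb2.

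Beyond these markers, 46 other epithelial genes were examined (desmosome, tight junction, polarity and keratin genes and epithelial transcription factors), and 20 of them were tested. In S1S2 against WT 8 of the 20 (40.0%) were called, 6 higher and 2 lower, with a median log2FC of 0.57 beside -0.003 for all genes. In G9Gl against WT 7 of the 20 (35.0%) were called, 6 higher and 1 lower, with a median of 0.42 beside -0.007. In G9Gl against S1S2 11 of the 20 (55.0%) were called, 7 higher and 4 lower, with a median of 0.11. The shares among all tested genes are the 9.0%, 10.2% and 13.1% given above. Of the 20 tested genes 5 passed the filter on low counts only through the libraries of 1 mutant (Dsp, Evpl and Ocln through S1S2, Grhl2 and Krt14 through G9Gl), so these had to differ, and the shares and medians support nothing about the list. Where at least 10 counts were required in every library, 2 of 10 tested genes were called in S1S2, 3 of 10 in G9Gl and 4 of 10 between the mutants. The rest of the list was low, with 16 of the 46 at or under the floor in every library and 7 at 0.

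The largest changes among called genes with a mean of at least 50 counts are given first. Ppl stood at 3.78, 4.17 and 2.68 CPM in WT, 25.1, 22.0 and 22.1 CPM in S1S2 and 12.7, 17.7 and 14.4 CPM in G9Gl, and it rose in both mutants (adjusted p = 6.16e-11 and 1.94e-09), by log2FCs of 2.70 (SE 0.200) and 2.08 (SE 0.236). Pkp1, which encodes the desmosomal plaque protein plakophilin 1, stood at 2.03, 1.32 and 1.42 CPM in WT, 0.230, 0.255 and 0.235 CPM in S1S2 and 28.9, 30.6 and 29.4 CPM in G9Gl. It fell in S1S2, with a log2FC of -2.70 (SE 0.369, adjusted p = 3.94e-07). In G9Gl it rose by 4.21 (SE 0.185, adjusted p = 8.94e-15). The 3 genotypes did not overlap in Ppl or in Pkp1.

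Krt7, a type II keratin of simple epithelia, stood at 1.66, 1.46 and 1.13 CPM in WT, 2.67, 1.57 and 2.40 CPM in S1S2 and 9.65, 10.2 and 9.56 CPM in G9Gl. It rose in G9Gl (log2FC 2.78, SE 0.158, adjusted p = 2.54e-10) and was higher there than in S1S2 (2.17, SE 0.228, adjusted p = 4.40e-09). Pkp3, another plakophilin gene, was higher in G9Gl than in S1S2 by 1.28 (SE 0.167, adjusted p = 3.56e-06) and than in WT by 1.13 (SE 0.178, adjusted p = 9.37e-06). Llgl2, a gene of basolateral polarity, rose in S1S2 by 1.43 (SE 0.135, adjusted p = 2.34e-08) and was lower in G9Gl than in S1S2 by a log2FC of -1.14 (SE 0.162, adjusted p = 2.27e-07). Spint1, an epithelial protease inhibitor gene, was called lower in G9Gl right at the limit (-1.0, SE 0.207, adjusted p = 6.97e-05). Without WT replicate 3 or without G9Gl replicate 3 no gene of the list was called lower in G9Gl, and Spint1 was the gene lost.

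Cdh3, the P-cadherin gene, is outside the rule for named genes and is given because it had the most counts of the called genes of the list. It stood at 105, 117 and 101 CPM in WT, 57.4, 59.4 and 61.4 CPM in S1S2 and 125, 132 and 132 CPM in G9Gl. The genotypes did not overlap, with S1S2 the lowest. Cdh3 was called higher in G9Gl than in S1S2 (log2FC 1.12, SE 0.0382, adjusted p = 1.26e-11), and in S1S2 against WT it was -0.86 (SE 0.0695, adjusted p = 8.57e-10), below the 2-fold limit.

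Some called epithelial genes had few counts, and they are named here because the counts of this list rest on them. Krt14, the type I keratin of basal epidermis, had 0 counts in WT, 2, 1 and 1 in S1S2 and 109, 118 and 156 in G9Gl, which is at least 45.7-fold higher than in WT against the floor of 3 counts per library. Dsp, the desmoplakin gene, had 1, 1 and 2 counts in WT, 23, 51 and 30 in S1S2 and 2, 2 and 0 in G9Gl, a ratio of 34.6 for S1S2 over WT (95% interval 13.1 to 129). Ocln, the occludin gene of tight junctions, had 13, 16 and 12 counts in S1S2 against 0 in WT, at least 6.06-fold higher. These 3 genes were high in all libraries of a single mutant.

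Grhl2, a transcription factor of epithelial genes, had 0, 1 and 0 counts in WT, 6, 7 and 3 in S1S2 and 26, 17 and 28 in G9Gl. The ratio was 21.3 for S1S2 over WT (3.31 to 893) and 76.5 for G9Gl over WT (13.3 to 3070). Evpl, the envoplakin gene, had 21, 8 and 7 counts in WT, 36, 43 and 38 in S1S2 and 4, 8 and 4 in G9Gl, and was called higher in S1S2 (log2FC 2.11, SE 0.401, adjusted p = 6.54e-05). Trp63, a regulator of stratified epithelia, had 33, 20 and 29 counts in WT, 4, 0 and 4 in S1S2 and 34, 36 and 16 in G9Gl, and was called lower in S1S2 (-2.89, SE 0.640, adjusted p = 0.00056). Grhl2 was thus lowest in WT, Evpl highest in S1S2 and Trp63 lowest in S1S2.

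**Figure D4:**
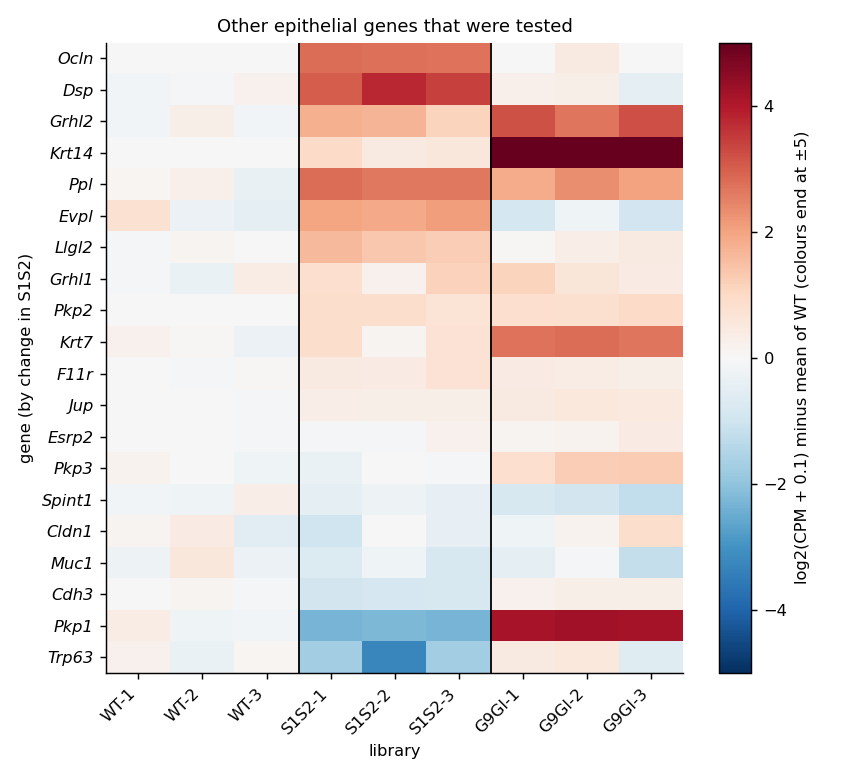
Level of the 20 tested genes of the wider epithelial list (rows, ordered by their change in S1S2) in the 9 libraries (columns), as log2 of CPM plus 0.1 minus the mean of the WT libraries (colour, ending at ±5). Ocln, Dsp and Evpl are red in S1S2, Krt14, Krt7 and Pkp1 are red in G9Gl, Ppl and Grhl2 are red in both, and Pkp1 and Trp63 are blue in S1S2.

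Markers of other cell types were read in the same libraries, since several epithelial genes are also expressed in mesothelium. Of 6 such genes 3 were tested, and all 3 were called higher in G9Gl, as were 6.77% of all tested genes: Msln (log2FC 1.20, adjusted p = 1.98e-13), Upk3b (3.38, adjusted p = 5.49e-10) and Muc16, which was at 0 in WT and at least 38.4-fold higher. Muc16 passed the filter only through G9Gl and so had to differ. In S1S2 against WT, 0 of the 3 were called by edgeR or by DESeq2, beside 9.0% of all tested genes, and 1 had an unadjusted p under 0.05. Their summed level was 415 to 451 CPM in WT, 429 to 442 in S1S2 and 979 to 1018 in G9Gl, nearly all of it Msln, and Wt1 was at 0 in every library. The 2 remaining markers were not tested, Lrrn4 with at most 3 counts in a library and Upk1b with 0 counts in WT, 5, 3 and 3 in S1S2 and 0, 2 and 1 in G9Gl. The part of these markers in the rise of Krt7, Krt14, Krt19 and Pkp1 in G9Gl was not tested. In bulk libraries, a change in the number of cells of a kind and a change in RNA per cell cannot be told apart.

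Of 9 trophoblast markers 5 were at 0 in all libraries, including Cdx2, Tfap2c and Hand1, and 2 were tested. Gata3, which many other tissues express, stood at 19.5, 22.6 and 19.4 CPM in WT and made up most of the summed level of 17.2 to 24.4 CPM, and its log2FC in G9Gl was -0.44 (adjusted p = 0.00139), below the 2-fold limit. Eomes was called higher in G9Gl than in WT (1.26, adjusted p = 1.19e-05) and than in S1S2 (1.81, adjusted p = 5.11e-07), 1 of the 2 in each case beside 10.2% and 13.1% of all tested genes. In S1S2 against WT 0 of the 2 were called by edgeR or by DESeq2, beside 9.0% of all tested genes, and 1 had an unadjusted p under 0.05.

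The endothelial, blood cell and glial lists had low sums. Of 7 endothelial markers 2 were tested, each having passed the filter only through 1 mutant, so that they had to differ. Kdr was called higher in S1S2 than in WT (85 summed counts against 2) and lower in G9Gl than in S1S2 (adjusted p = 1.41e-05), and Cdh5 was called higher in G9Gl than in WT (at least 10.5-fold against 0) and than in S1S2 (adjusted p = 9.28e-05), with sums of at most 2.35 CPM. That was 1 of 2 in each mutant against WT and 2 of 2 between the mutants, beside the same shares of all tested genes. Of 7 blood cell and of 6 glial and neural crest markers 1 each was tested, and 0 were called by edgeR or by DESeq2 in any comparison, although the blood cell gene, Cd68, had an unadjusted p under 0.05 in 2 of the 3 comparisons and the glial gene in 2 of the 3. The sums were at most 4.90 and 2.15 CPM. The part of these cell types in the results above was not tested.

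Mesenchymal genes were still expressed in both mutants, and 9 of those tested were called lower in S1S2. Of 24 such genes 22 were tested, and in S1S2 against WT 9 (40.9%) were called, all lower, beside 9.0% of all genes called and 4.34% called lower, with a median log2FC of -0.60. In G9Gl against WT 8 (36.4%) were called, 4 higher and 4 lower, beside 10.2% of all genes, with a median of -0.07. Between the mutants 10 (45.5%) were called, 9 higher in G9Gl and 1 lower, beside 13.1% of all genes. The list was chosen with earlier results of these data known, so these shares and medians support nothing about the list. The summed level of the list was 15940 to 17730 CPM in WT, 12470 to 12600 CPM in S1S2 and 15940 to 17020 CPM in G9Gl. Vim, the gene of the mesenchymal filament vimentin, was not among the called genes (log2FC 0.72 in S1S2, SE 0.0667, adjusted p = 1.40e-08, and -0.22 in G9Gl).

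The fibrillar collagen gene Col3a1 stood at 1479, 1560 and 1543 CPM in WT, 181, 182 and 207 CPM in S1S2 and 821, 861 and 851 CPM in G9Gl. It fell in S1S2 by a log2FC of -3.01 (SE 0.0673, adjusted p = 5.74e-17), and Col1a2 fell there by -2.60 (SE 0.0403, adjusted p = 7.51e-17). Postn, the gene of the matrix protein periostin, fell in S1S2 by -2.82 (SE 0.123, adjusted p = 2.06e-14) and rose in G9Gl by 1.29 (SE 0.0584, adjusted p = 1.05e-11). Thy1, a fibroblast surface marker gene, fell in S1S2 by -1.29 (SE 0.139, adjusted p = 5.75e-07) and rose in G9Gl by 2.94 (SE 0.105, adjusted p = 3.70e-14). Postn and Thy1 thus moved in opposite directions in the mutants.

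In G9Gl, Tnc, the tenascin C gene, rose from 56.8, 61.6 and 52.6 CPM in WT to 457, 497 and 512 CPM (log2FC 3.10, SE 0.0818, adjusted p = 1.25e-16), and Mmp2, a matrix metalloproteinase gene, rose by 2.13 (SE 0.240, adjusted p = 1.50e-08). Dcn, the decorin gene, was at 7.20, 6.74 and 7.70 CPM in WT, 1.24, 2.84 and 2.45 CPM in S1S2 and 0.176, 0.287 and 0.131 CPM in G9Gl, and fell in both. The PDGF receptor genes Pdgfra and Pdgfrb fell in both mutants, by -2.04 and -1.14 in S1S2 and by -1.85 and -1.34 in G9Gl. Each of these called genes had no overlap between the libraries compared.

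**Figure D5:**
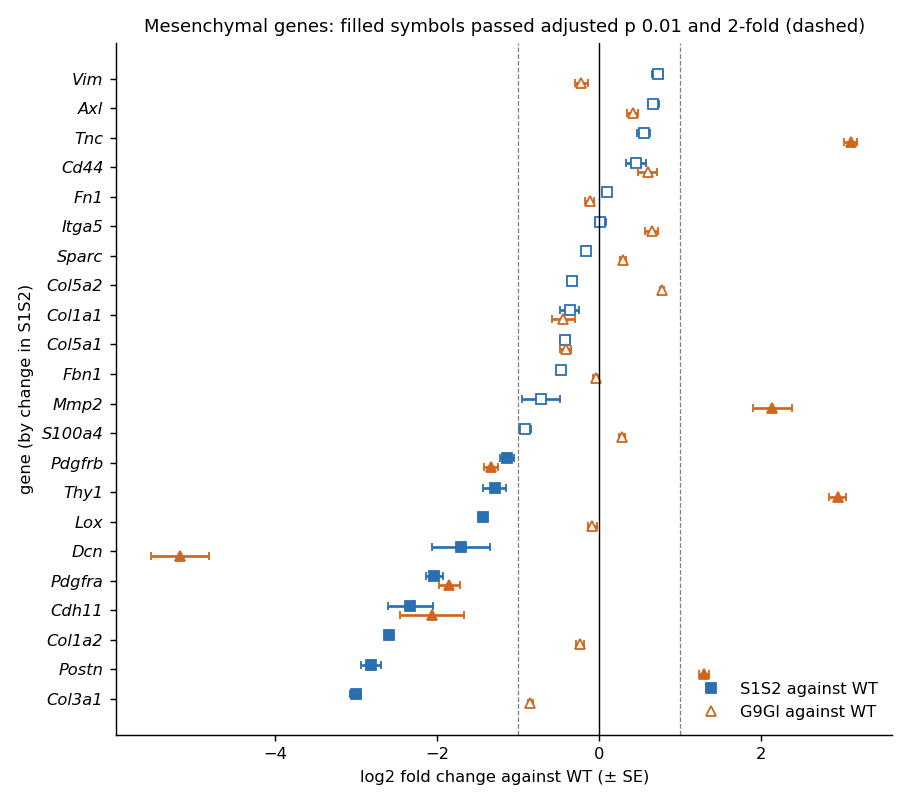
Log2 fold change against WT (x axis, with SE) of the 22 tested mesenchymal genes (y axis, ordered by the S1S2 value) in S1S2 (squares) and G9Gl (triangles). Filled symbols passed an adjusted p of 0.01 and the 2-fold limit (dashed lines). The 9 filled squares all lie to the left, down to -3.01 for Col3a1, and the filled triangles lie on both sides, from -5.17 for Dcn to 3.10 for Tnc.

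Of 29 other regulators of EMT, 27 were tested and few were called. In S1S2 against WT 2 were called, a share of 7.41% of those tested that is near the 9.0% of all genes. Prrx1, a homeobox gene of mesenchyme, stood at 104, 104 and 106 CPM in WT, 17.5, 19.9 and 20.2 CPM in S1S2 and 105, 103 and 94.5 CPM in G9Gl. All S1S2 libraries were below the other 6, and Prrx1 fell in S1S2 by a log2FC of -2.44 (SE 0.0676, adjusted p = 2.72e-15), a 5.43-fold difference. The other called gene, Foxq1, is named because the count holds few genes. It had 9, 8 and 10 counts in WT and 19, 39 and 16 in S1S2, and it passed the filter only through S1S2.

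In G9Gl against WT 1 of the 27 regulators (3.70%) was called, below the 10.2% of all genes. This was Klf8, a repressor gene, which rose from 10.1, 7.74 and 9.31 CPM to 20.04, 20.4 and 19.9 CPM (log2FC 1.15, SE 0.112, adjusted p = 6.59e-09). Between the mutants 3 (11.1%) were called, beside 13.1% of all genes. Prrx1 was higher in G9Gl, and Hmga2, the gene of an architectural chromatin protein, was lower there than in S1S2 by -1.05 (SE 0.0969, adjusted p = 8.36e-08), as was Foxq1. The 5 precursor genes of the miR-200 family, which target Zeb1 and Zeb2, did not exceed the floor in any library, and 3 of them had no count. Small RNAs are poorly captured in libraries of this kind, so this says little of the mature miRNAs.

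Among 13 further cadherin and catenin genes 5 were tested and 8 never exceeded the floor. Cdh13, the gene of a cadherin without a cytoplasmic tail, stood at 21.1, 21.9 and 20.3 CPM in WT, 46.1, 48.0 and 50.8 CPM in S1S2 and 21.8, 24.1 and 23.6 CPM in G9Gl. The S1S2 libraries were above all others, and Cdh13 rose in S1S2 by a log2FC of 1.20 (SE 0.0521, adjusted p = 5.29e-11). It was 1 of 5 called there, beside 9.0% of all genes. Between the mutants it was again 1 of 5, lower in G9Gl than in S1S2 (-1.06, SE 0.0605, adjusted p = 1.26e-10), beside 13.1%. In G9Gl against WT 0 of the 5 were called by edgeR and 0 by DESeq2, beside 10.2% of all genes, and 1 had an unadjusted p under 0.05.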

How the data were processed

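The authors deposited raw counts of reads for each Ensembl gene in 9 stranded total RNA libraries, without normalization. Per the methods of the study, the authors aligned reads to GRCm38 with STAR (version 2.5.2b in the submitters' processing notes, which also name DESeq2) with the settings that TEtranscripts recommends, and counted with TEtranscripts; the annotation release and the use of strand in counting are not given in the sources used here. How reads shared by near-identical or overlapping genes were counted is not stated, so such values are uncertain. It was assumed that these methods, written for libraries of the same lines, cover the libraries used here.

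Of 47937 genes, 47224 were matched by identifier to GENCODE M21 and 713 were not, 21449 had no count, and 15540 passed filterByExpr. R 4.3.3 and edgeR 4.0.16 (glmQLFit, glmQLFTest, TMM) fitted all 9 libraries with a coefficient per genotype, and the script was tested on simulated data. SE values were the larger of that from the replicate variance of log2 CPM (prior count 2) and that from counting of the summed reads. The biological coefficient of variation was 5.36%, and replicates differed by more than counting noise (chi-square per degree of freedom 2.68 to 25.6). Intervals and floors cover counting error only. Motif matches in the upstream windows are not reported here. The members and lists were chosen with earlier results of these data known. Named list genes are, per comparison, up to 3 rises and 3 falls among called genes with a mean of at least 50 counts and no overlap; others are stated to be so. For Krt19, the 2 most alike genes are named. Alternatives were DESeq2 1.42.0, other scalings, filters, thresholds and fits, the removal of chromosome medians, a replicate block and leaving out each library.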

Additional observations from a re-analysis of the deposited data

Results flagged for a closer look

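For Krt8, which was called against WT in S1S2 and not in G9Gl, and for 3 named genes that moved in opposite directions against WT, the direct edgeR comparison of G9Gl with S1S2 is given here. Other genes named above, such as Krt7, Prrx1 and Dcn, also differed between the mutants in that comparison. Each mutant is a single clone, so the difference between the clones and that between the genotypes cannot be told apart. Krt8 was high in S1S2 and near the WT level in G9Gl, the log2 fold change being -4.38 (SE 0.34, adjusted p = 2.70e-10). Krt8 entered the test only through its S1S2 libraries and so had to differ. Pkp1 fell in S1S2 and rose in G9Gl, with a difference of 6.91 (SE 0.351, adjusted p = 1.21e-15). The mesenchymal genes Postn and Thy1 likewise moved in opposite directions against WT, with differences of 4.12 (SE 0.121, adjusted p = 3.73e-17) and 4.23 (SE 0.123, adjusted p = 2.40e-15). In all 4 genes, no S1S2 library overlapped with a G9Gl library.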

How the results depend on the processing

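Of 353 alternative values for the 21 log2 fold changes of the 7 tested genes, 348 kept their direction and stayed called or not called, and 5 reversed, none of them a called value. The adjusted p alone moved across 0.01 in 21 of the 353, in 8 of the 21 results and in 0 of the called ones, among them Cdh2 in S1S2 (up to 0.0277) and Zeb2 in S1S2 (0.00266 with chromosome medians removed). Snai1 in S1S2 against WT went to -0.01 without WT replicate 3 and -0.04 without S1S2 replicate 1 (range without 1 library -0.04 to 0.18), and Snai2 in G9Gl against WT to 0.12 with chromosome medians removed, 0.03 without WT replicate 3 and 0.07 without G9Gl replicate 3 (range -0.24 to 0.07). Of 228 alternative counts over the lists, 204 stayed within 1.5 times and 24 did not. A minimum of 10 counts in every library removed Krt8 from the test, which left 1 of the 10 genes called in S1S2 and 0 in G9Gl against S1S2; it left 2, 3 and 4 other epithelial genes in S1S2, in G9Gl and between the mutants, and 1 other EMT regulator in S1S2. Without a filter 2 of the 10 genes were called between the mutants and 3 in S1S2 against WT, Krt18 being added to both. An adjusted p of at most 0.05 with no fold limit gave 5, 5 and 6 of the 10 genes in the same order of comparisons, 14 and 11 other epithelial genes against WT, 20, 20 and 17 mesenchymal genes and 19, 15 and 15 regulators. The glmTreat test against 2-fold called 5 other epithelial genes in S1S2 and 7 between the mutants, and 1 regulator in S1S2 and 0 in G9Gl (where edgeR's test against no change gave 17 at an unadjusted p under 0.05 and DESeq2 called 1). Leaving out a library, the calls of the 10 genes stayed at 2, 1 and 1, those of other epithelial genes between 8 and 9, 6 and 7, and at 11, those of mesenchymal genes at 9, 8 and 10, and those of regulators between 1 and 3, 1 and 2, and 2 and 3; the regulators were 1 in S1S2 without S1S2 replicate 2 and 2 in G9Gl without WT replicate 2. Spint1 was not called with DESeq2, DESeq2 size factors, glmTreat, a minimum of 10 counts or the block, nor without WT replicate 3 or G9Gl replicate 3. The cause of these shifts was not tested beyond the genes that a setting removes or adds.

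Same-numbered libraries did not deviate together (correlations between -0.069 and 0.124), so the numbers do not pair the samples. With the replicate block, 2, 1 and 1 of the 10 genes and 8, 6 and 11 other epithelial genes were called. Depth limits Cdh1, Epcam and Krt18 most, for which a library of 21319778 counts gives a floor of 0.141 CPM.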

Other observations

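The keratin family as a whole was examined after the values of its members were seen. The table holds 54 keratin genes, of which 25 were at 0 in all libraries, 39 had at most 3 counts in every library and 7 were tested. Those above 3 counts in every library of a genotype numbered 4 in WT, 5 in S1S2 and 8 in G9Gl. Called genes were Krt8, Krt16, Krt19 and Krt80 in S1S2, all higher, and Krt7, Krt14, Krt16, Krt19 and Krt80 in G9Gl, all higher, beside 4.66% and 6.77% of all tested genes called higher. Krt8, Krt14 and Krt16 passed the filter only through mutant libraries and so had to differ. Krt80, the keratin gene with the most counts, was at 25.6 ± 3.73 CPM in WT and rose to 79.8 ± 6.2 CPM in S1S2 and to 70.7 ± 8.12 CPM in G9Gl (SD, n = 3), with log2 fold changes of 1.64 (adjusted p = 2.64e-10) and 1.47 (adjusted p = 8.01e-10), and it did not differ past the threshold between the mutants (-0.17, adjusted p = 0.112). Krt16, a keratin of stressed epidermis, had 0 counts in WT, 5, 18 and 5 in S1S2 and 17, 2 and 13 in G9Gl, at least 3.89-fold and 3.79-fold higher, with 1 G9Gl library under the floor.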
